A study of Cucumis melo with 4 samples.

Results

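Some loci of the muskmelon (Cucumis melo) tables carry several gene identifiers under a single locus name, so that neighbouring gene models were measured as 1 unit with 1 expression value. They were taken as every locus whose gene field lists at least 2 MELO3C identifiers (the numbered gene models of the melon genome) separated by commas, on scaffolds rather than on contigs. This gave 953 merged loci of 32625 loci in all, and they hold 2050 distinct identifiers, which is 7.47% of the 27427 identifiers in the tables. A further 2 merged loci lay on contigs and were left out. The 25827 scaffold loci with exactly 1 identifier served for comparison.

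The study sequenced messenger RNA from 2 cultivars, labelled BXC and YL, each as an unstressed control and as a salt-stressed library, with 1 library for each of the 4 combinations. All plants were raised under glass in the same conditions, and sodium chloride was raised in steps of 75 mM to final levels of 150 and 300 mM in dilute nutrient solution. The sources used here do not give the tissue, the number of plants behind a library or the final level that each stressed sample reached. The deposited tables, B and Y, are tied to BXC and YL only by the letter that begins the sample titles, and each compares 2 libraries. Their headings leave the treatment of each library unnamed, so every change below is the second library over the first library of a table, and its direction relative to salt cannot be told apart from the reverse.

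When transcripts are assembled from short reads, those with overlapping exons are joined into 1 locus. Neighbouring genes can therefore fall together where they overlap, where their untranslated ends meet, where transcription runs from one into the next, or where 1 gene was annotated as several models. A merged locus then has a single level and a single fold for all its identifiers, and the share of each cannot be recovered. Levels are the values that the authors deposited as RPKM, a name for reads scaled by transcript length and by the library's mapped reads. Values over 1000000 RPKM in at least 1 library were listed for 57 loci with a median length of 113 bp, 0 of them merged. How the scaling treated such short loci is not recorded in the sources used here. The tables pair the identifiers with no gene name, and 0 of 2050 matched the reference gene table supplied, so no function is given for any locus here.

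Most merged loci held a pair of neighbouring gene models. Of the 953 loci, 833 (87.4%) listed 2 identifiers, 101 (10.6%) listed 3, 14 listed 4, 3 listed 5 and 2 listed 6. Their identifiers were consecutive numbers in 880 loci (92.3%), that is in 775 of 833 loci with 2 identifiers (93.0%) and in 105 of 120 loci with at least 3 (87.5%). Identifier numbers run along the scaffolds: over 20464 neighbouring pairs of single-identifier loci with a region of their own, the number increased with position in 96.9% and increased by exactly 1 in 85.2%. Of the 1099 steps from one listed identifier to the next, 1023 were of 1, 55 of 2, 15 of 3 and 4 of 4, and the remaining ones were a step of 5 and a step of 6. The other 73 loci skipped 106 identifiers in all. Each of these 106 identifiers was listed at another locus that occupied exactly the same region, so the skipped gene model had been kept as a separate locus with the limits of the merged one.

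The longer of the loci with 6 identifiers was MELO3C008638 to MELO3C008644 on scaffold00009, positions 4768277 to 4851539, which covered 83263 bp and skipped a number. The other locus with 6 identifiers, MELO3C003347 to MELO3C003353 on scaffold01596, spanned 40541 bp from 474935 to 515475. The widest gap inside a pair was that of MELO3C021845 and MELO3C021851 on scaffold00050, 331441 to 456562, which are 6 numbers apart and lie in a region of 125122 bp. A span of 6 numbers also occurred at MELO3C020282 to MELO3C020288 on scaffold00042, 2371783 to 2431643, where 4 identifiers were listed in 59861 bp. These coordinates are those of the tables, whose locus names begin with CM3.5, counted from 1.

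Merged loci were long. Their regions had a median of 9466 bp (95% interval 8955 to 10185) and quartiles of 5841 and 17115 bp, whereas single-identifier loci had a median of 2666 bp (2619 to 2721) and quartiles of 803 and 5386 bp. Intervals of medians are exact binomial intervals over loci. Divided by the number of identifiers, the merged median was 4620.5 bp per identifier, still above that of all single-identifier loci. Some of these regions are shared with other loci. For regions of their own the medians were 3479 bp per identifier and 1945 bp. In bins at the levels of merged loci, single-identifier loci had median lengths of 2995 to 4636 bp. The length per identifier was not compared at matched level. The median was larger with more identifiers, from 8953 bp with 2 (8360 to 9466) to 16970 bp with 3 (12876 to 19541) and 34707 bp with at least 4 (26751 to 61111). Regions over 10000 bp made up 47.2% of merged loci and 10.6% of single-identifier loci, and 8446 single-identifier loci (32.7%) were shorter than the shortest merged locus.

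**Figure D1:**
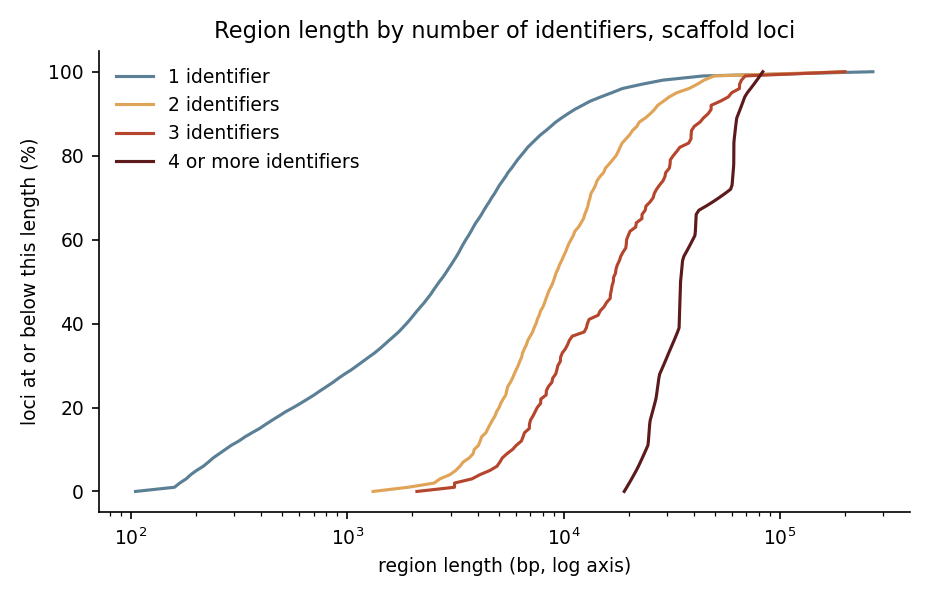
Cumulative share of loci (percent) against region length in bp on a log axis, for merged loci with 2, 3 and at least 4 identifiers and for single-identifier loci on scaffolds. The curves shift to the right with the number of identifiers, from a median of 2666 bp with 1 identifier to 34707 bp with at least 4.

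The longest region, scaffold00003 from 5779041 to 5978684 (199644 bp), was shared by a pair of merged loci, MELO3C004288 with MELO3C004291 and MELO3C004302 with MELO3C004304, among 16 other loci for each. The next, MELO3C021580 with MELO3C021581 on scaffold00048, 1459120 to 1598399, covered 139280 bp. At the short end, MELO3C008011 with MELO3C008012 occupied 1315 bp on scaffold00007 (6752446 to 6753760), MELO3C016386 with MELO3C016387 occupied 1474 bp on scaffold00027 (4262500 to 4263973), and MELO3C023379 with MELO3C023380 occupied 1503 bp on scaffold00060 (170485 to 171987). Each of the 3 shortest regions belonged to its locus alone.

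Merged loci more often shared their exact region with other loci than single-identifier loci did. Of the 953, 359 (37.7%) had a region listed for at least 1 other locus, compared with 4860 (18.8%) of single-identifier loci. The share was 35.1% with 2 identifiers and 55.8% with at least 3. No pair of the 29192 distinct regions overlapped in part, so loci that share a region form a bundle listed with common outer limits. Of the 359 merged loci, 211 shared their region with exactly 1 other locus, 320 with a single-identifier locus, 96 with a locus without identifier and 8 with another merged locus. Leaving shared regions out, the median length was 7240.5 bp for 594 merged loci (6777 to 7683) and 1945 bp for 20967 single-identifier loci (1898 to 1987), so the difference in length remained.

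Within a bundle the merged locus was usually the most abundant. Of the 359 merged loci in shared regions, 292 had the highest RPKM of their region in the first and 278 in the second library of the B table, and 295 and 225 in those of the Y table. Regions of merged loci also lay somewhat closer to their neighbours. Among loci with a region of their own, the gap to the nearest other region had a median of 1423 bp over 591 merged loci (quartiles 671 and 3101) and of 1926 bp over 20639 single-identifier loci (quartiles 774 and 5554.5). Merged loci lay on 110 of the 510 scaffolds that carry identifiers. Many of the 510 carry only 1 identifier and so cannot hold a merged locus. On the 43 scaffolds with at least 200 identifiers, 2.61 to 12.6% of identifiers were in merged loci, with a median of 8.45%. At most 44 merged loci lay on a single scaffold.

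Some gene models were counted in more than 1 place. Of the identifiers in merged loci, 237, from 207 merged loci, were also listed at another locus, which gave 310 pairs, 261 of them within the same region. In the 306 pairs of a merged with a single-identifier locus, the merged locus had a median of 11.1 RPKM and the single locus 0.429 RPKM in the first library of the B table. The medians were 9.64 and 1.22 RPKM in its second library. In the Y table they were 11.2 and 0.282 RPKM in the first library and 10.1 and 4.36 RPKM in the second. The merged locus was the higher of the pair in all 4 libraries in 227 of 306 pairs. The single locus was listed at 0 in 131 and 56 pairs in the libraries of the B table, and in 121 and 2 pairs in those of the Y table. Where both loci of a pair had a finite fold, their folds had the same direction in 44 of 83 pairs (53.0%) in the B table and in 81 of 181 (44.8%) in the Y table. The median log2 folds, merged and single, were -0.16 and 0.84 in the B table and -0.24 and 2.61 in the Y table. The fold of such a gene model thus differed with the locus that was read.

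Merged loci were detected almost throughout, at moderate levels. Their median was 12.1 RPKM (11.1 to 13.3) in the first and 9.55 RPKM (8.82 to 10.8) in the second library of the B table. In the Y table it was 11.5 RPKM (10.5 to 12.8) in the first and 9.56 RPKM (8.70 to 10.4) in the second library. The sources used here do not say whether levels were scaled between the tables. Single-identifier loci had medians of 1.77 and 1.95 RPKM in the B table and 2.20 and 2.51 RPKM in the Y table. Many single-identifier loci were listed at 0, which applied to 28.6 to 36.8% of them in a given library, against 0.525 to 0.839% of merged loci. Joining by assembled transcripts itself needs reads at the locus. How far the detection of merged loci follows from this was not tested. Values of at least 1 RPKM in all 4 libraries were found for 872 merged loci (91.5%) and for 11746 single-identifier loci (45.5%). The upper parts of the distributions were closer, with upper quartiles of 20.2 to 27.5 RPKM for merged and 12.7 to 15.7 RPKM for single-identifier loci. Values over 100 RPKM in all 4 libraries occurred at 21 merged loci (2.20%) and 413 single-identifier loci (1.60%).

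**Figure D2:**
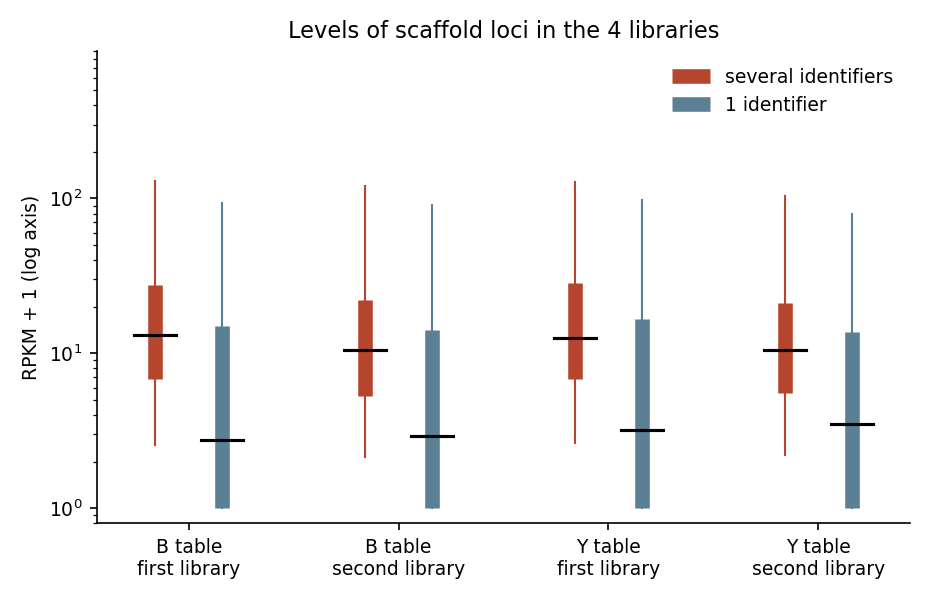
Levels of scaffold loci in the 4 libraries, as RPKM + 1 on a log axis, with boxes from the lower to the upper quartile, a line at the median and whiskers from the 5th to the 95th percentile. Merged loci have medians of 9.55 to 12.1 RPKM, and single-identifier loci medians of 1.77 to 2.51 RPKM with lower quartiles at 0.

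The 19 loci with at least 4 identifiers lay in a narrow range. Their medians were 9.05 and 9.58 RPKM in the B table and 9.61 and 11.9 RPKM in the Y table, and every value of the 19 loci was between 2.20 and 51.7 RPKM. The top of that range was MELO3C008638 to MELO3C008644, with 51.7 and 17.3 RPKM in the B table and 12.1 and 18.0 RPKM in the Y table. MELO3C003347 to MELO3C003353 had 13.5 and 16.8, then 9.61 and 27.6 RPKM. The loci with 5 identifiers differed less between libraries. MELO3C019656 to MELO3C019661 (scaffold00039, 1432026 to 1493246) had 14.1 and 10.9, then 7.43 and 13.3 RPKM. MELO3C015390 to MELO3C015394 (scaffold00025, 1282227 to 1323264) had 9.03 and 14.0, then 9.98 and 12.5 RPKM. MELO3C020232 to MELO3C020237 (scaffold00042, 1244623 to 1278778) had 8.72 and 12.6, then 11.7 and 9.13 RPKM. No library was the highest for all 5 of these loci.

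The most abundant merged loci were pairs. MELO3C018043 with MELO3C018044 (scaffold00031, 3927019 to 3929767) had 4064 and 2153 RPKM in the first and second libraries of the B table and 10643 and 6507 RPKM in those of the Y table, so the second library was the lower in each table. MELO3C016166 with MELO3C016167 (scaffold00027, 1812579 to 1822078) had 414 and 3840, then 522 and 2813 RPKM, and MELO3C023786 with MELO3C023787 (scaffold00062, 1520033 to 1522934) had 683 and 2779, then 921 and 3036 RPKM; in these the second library was the higher in each table. MELO3C016406 with MELO3C016407 (scaffold00027, 4382777 to 4386469) stayed between 869 and 1003 RPKM in all 4 libraries. MELO3C027106 with MELO3C027107 (scaffold00316, 3355 to 6026) had 896 and 467, then 806 and 1547 RPKM.

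As with the levels, how far the zeros of merged loci follow from joining by assembled transcripts was not tested. A value of 0 was rare. It occurred at 16 merged loci in at least 1 library and at 0 merged loci in all 4, whereas 6269 single-identifier loci (24.3%) were listed at 0 throughout. Examples of each kind, chosen after their values were seen, were few. MELO3C021356 with MELO3C021357 was listed at 0 in the first library of each table and had 305 RPKM in the second library of the B table and 119 RPKM in that of the Y table. MELO3C019713 with MELO3C019714 was listed at 0 in both libraries of the B table and had 28.6 and 23.3 RPKM in the Y table. MELO3C010171 with MELO3C010172 had 11.1 and 5.69 RPKM in the B table and was listed at 0 in both libraries of the Y table. The last pair of loci thus separated the tables rather than the libraries within a table.

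Across merged loci, levels were most alike between libraries of the same position in the other table. Pearson correlations of log2(RPKM + 1) over the 953 loci were 0.921 between the first libraries of the tables and 0.894 between their second libraries, compared with 0.706 between the libraries of the B table and 0.667 between those of the Y table. Single-identifier loci showed the same order, with 0.920, 0.900, 0.814 and 0.742. These are correlations across loci, which are not replicates, and the loci share the same 4 libraries.

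The authors' test gave a result for nearly every merged locus. A test was given for 918 of 953 (96.3%) in the B table, against 55.1% of single-identifier loci, and for 947 (99.4%) against 65.9% in the Y table. By the q-value in the authors' deposited table, 1 of 918 merged loci passed 0.05 in the B table, where the share over all loci tested was 0.415%, and 0 of 947 in the Y table, where it was 0.515%. At an unadjusted p-value under 0.05 in the authors' deposited table there were 19 merged loci (2.07%) in the B table, against 6.62% of all loci tested, and 13 (1.37%) in the Y table, against 6.71%. With 1 library per group these p-values hold no spread between plants. The counts below therefore rest on the size of the deposited fold.

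Merged loci were more often lower than higher in the second library. A finite fold was listed for 914 merged loci in the B table. The second library exceeded the first by at least 2-fold at 119 of them (13.0%) and was at least 2-fold below it at 247 (27.0%). Over all loci of that table these shares were 22.0% and 26.2%, so the lower share of merged loci was close to the background and the higher share was below it. Of 940 merged loci with a finite fold in the Y table, 126 (13.4%) were at least 2-fold higher and 285 (30.3%) at least 2-fold lower, against 23.7% and 32.3% over all loci. Changes in either direction reached 40.0% of merged loci in the B table (exact 95% interval 36.8 to 43.3), where the background was 48.3%, and 43.7% in the Y table (40.5 to 47.0), where it was 56.0%. A 4-fold change was reached by 129 merged loci (14.1%) in the B table and 155 (16.5%) in the Y table, against 21.4% and 30.8% of all loci.

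The median log2 fold of merged loci was -0.37 in the B table (-0.44 to -0.28) and -0.42 in the Y table (-0.51 to -0.34), against -0.14 and -0.37 for single-identifier loci. The second library was the lower for 592 merged loci (64.8%) in the B table and 601 (63.9%) in the Y table, against 53.9% and 59.9% of single-identifier loci. These directions rest on how the authors scaled the libraries of a table. Folds were also centred on the median of single-identifier loci. In the B table this left 136 merged loci (14.9%) at least 2-fold higher and 216 (23.6%) lower. In the Y table it left 193 (20.5%) higher and 195 (20.7%) lower, so the excess of lower merged loci was nearly absent there. The shares of single-identifier loci and of all loci were not computed with centred folds. Whether the centred pattern is particular to merged loci was therefore not tested.

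Loci with at least 4 identifiers had the smallest share of changes in each table. At least 2-fold changes were found for 40.0% of loci with 2 identifiers, 43.0% with 3 and 26.3% with at least 4 (5 of 19) in the B table, and for 44.3%, 40.0% and 36.8% (7 of 19) in the Y table. The median log2 fold was -0.38, -0.25 and -0.24 in the B table, and -0.46, -0.25 and 0.33 in the Y table. Of the 19 loci with at least 4 identifiers, 12 were lower in the second library of the B table and 5 in that of the Y table. The group is small, and no test separates it from the pairs. Loci with a region of their own changed at least 2-fold in 43.3% (B) and 45.3% (Y) of cases, and those with a shared region in 34.8% and 41.2%. Loci with consecutive identifiers did so in 41.0% and 44.1%, and those that skip a number in 29.2% and 39.7%. All 73 loci that skip a number lie in a shared region, so the last contrast is not separate from that of own and shared regions.

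The spread of folds varied with level, so merged and single-identifier loci were also compared at matched level. Merged loci were put into 10 bins of equal number by their mean log2(RPKM + 1) in a table, single-identifier loci were put into the same bins, and the differences per bin were averaged with the merged loci as weights. The range between the quartiles of the log2 fold was widest in the lowest bin for single-identifier loci, at 2.91 (B) and 3.63 (Y). For merged loci it was 1.94 and 2.72 there. It was wide again at high level, at 1.97 from 30.9 to 56.8 RPKM in the B table and 2.24 in the highest bin of the Y table. At matched level, 40.0% of merged and 46.5% of single-identifier loci had changed at least 2-fold in the B table, a difference of -6.43 percentage points (-9.63 to -3.17). The shares were 43.7% and 52.4% in the Y table, a difference of -8.64 points (-11.8 to -5.40). Both intervals take their width from that of the merged share alone. They leave out the spread of single-identifier loci and are therefore approximate. Merged loci had the smaller share in 9 of 10 bins in each table, and the exception was the bin from 30.9 to 56.8 RPKM in the B table (48.4% and 41.4%) and the bin from 29.7 to 53.1 RPKM in the Y table (51.1% and 47.7%). The gap did not follow the level evenly: it was widest in the lowest bin of the B table, at -15.4 points between 1.24 and 3.49 RPKM, but only -1.52 points in the lowest bin of the Y table (70.2% and 71.7% between 0.696 and 2.87 RPKM). The widest gap of the Y table was in the next bin, at -24.0 points between 2.89 and 4.74 RPKM (37.2% and 61.2%). This comparison was chosen after the data were seen.

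Merged loci were also longer at matched level. Within a level bin the median region was 7030 to 13605 bp for merged loci and 2995 to 4636 bp for single-identifier loci. With bins by level and region length over all loci, the difference in the share changed was -1.79 points in the B table and -7.41 points in the Y table. With level bins over loci with a region of their own alone, it was -3.91 and -6.74 points. Either choice by itself thus left the sign negative, but the B difference with length bins was small and is given without an interval. With both choices together the difference turned: 43.3% of merged and 38.8% of single-identifier loci had changed at least 2-fold in the B table (4.49 points), and 45.3% and 43.0% in the Y table (2.31 points). The level-matched difference in the median log2 fold, merged minus single-identifier, was -0.21 in the B table (-0.28 to -0.12, from -0.35 and -0.14) and -0.07 in the Y table (-0.16 to 0.02, from -0.44 and -0.37). The interval of the latter includes 0, but with bins by level and region length the Y difference was -0.34. Both intervals take their width from that of the median over all merged loci. They are therefore approximate and leave out the spread of single-identifier loci. Merged loci had the lower median in 8 of 10 bins in the B table and in 6 of 10 in the Y table.

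**Figure D3:**
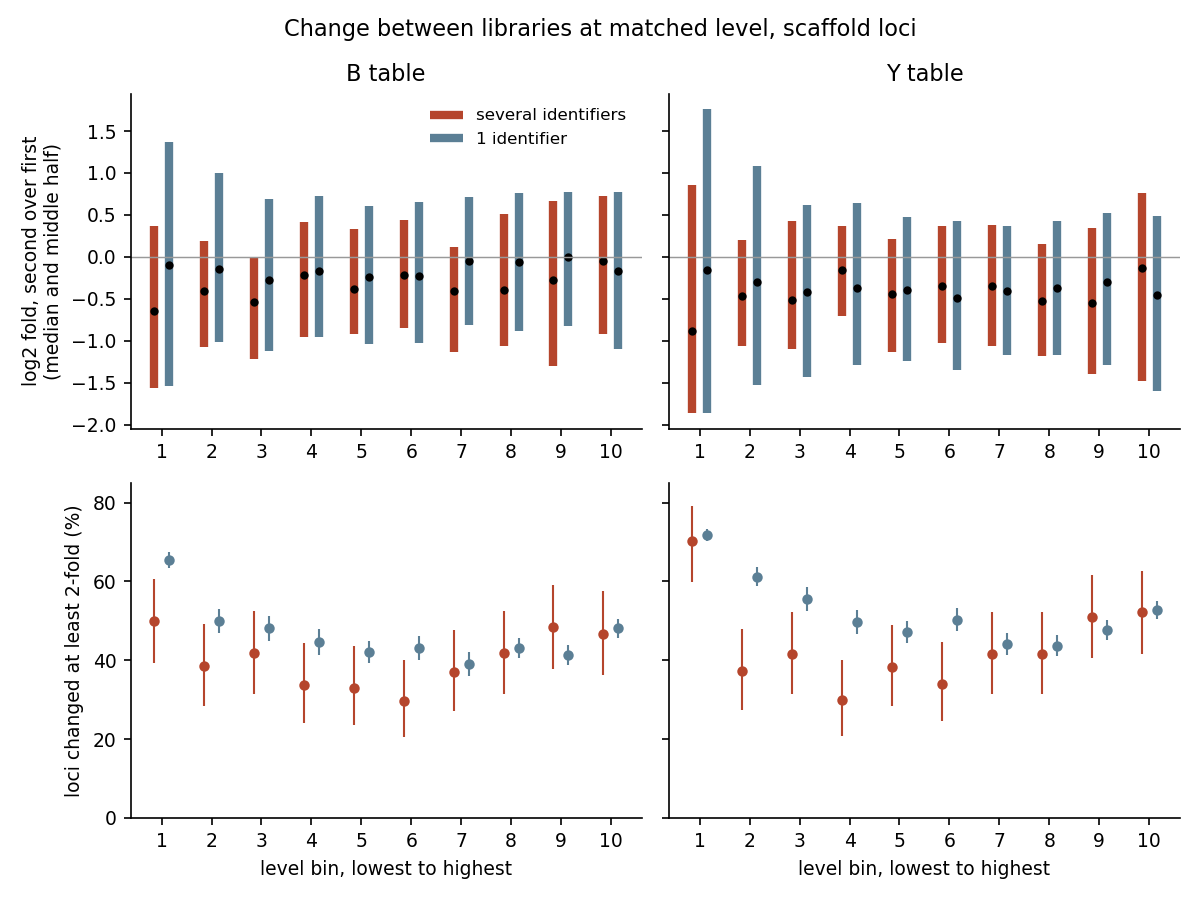
Fold size at matched level in the B and Y tables, with the level bins on the horizontal axis, from lowest to highest. The upper panels show the median log2 fold, second over first, with the range between the quartiles, and the lower panels the percent of loci changed at least 2-fold with exact 95% intervals. Merged loci have the smaller share in 9 of 10 bins in each table. Region length is not matched here, and the difference turned among loci with a region of their own in bins by level and region length.

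The tables use separate libraries, so they can be set side by side locus by locus. Of 908 merged loci with a finite fold in each, 692 (76.2%, exact 95% interval 73.3 to 78.9) had folds of the same direction, against 79.3% of single-identifier loci (78.6 to 80.0). Pearson's r between the log2 folds of the tables was 0.736 and Spearman's rho 0.689 over merged loci, and r was 0.786 over single-identifier loci; these describe loci, not replicates. A change of at least 2-fold in both tables was found upward at 64 merged loci (7.05%) and downward at 175 (19.3%), against 12.9% and 20.8% of single-identifier loci. Changes under 2-fold in both tables were found at 398 merged loci (43.8%) and at 37.2% of single-identifier loci. Opposite changes of at least 2-fold were found at 7 merged loci (0.771%) and at 1.49% of single-identifier loci.

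**Figure D4:**
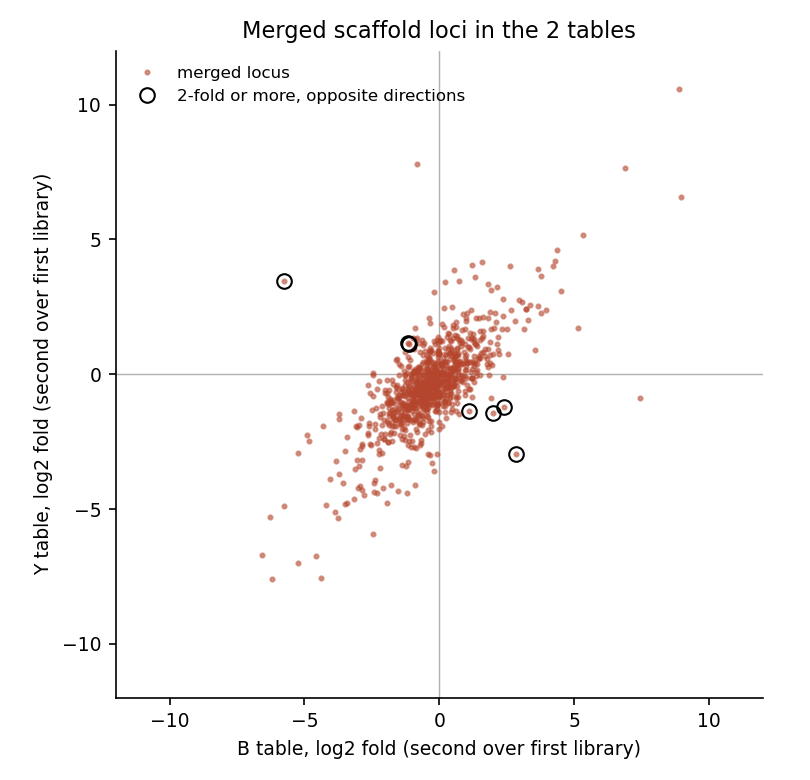
Log2 fold (second over first library) in the Y table against that in the B table, 1 point for each of the 908 merged loci whose folds were finite in both. Lines mark no change in each table, and open circles mark loci changed at least 2-fold in opposite directions. The points run along the diagonal, with 175 loci lower and 64 higher by at least 2-fold in both tables and 7 in the opposite corners.

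The only merged locus past the authors' q-value limit was MELO3C016386 with MELO3C016387, the second shortest. It had 0.233 and 109 RPKM in the first and second libraries of the B table and 0.116 and 179 RPKM in those of the Y table, so it was near 0 in both first libraries and above 100 RPKM in both second libraries. The authors' deposited table gave a log2 fold of 8.87 with a p-value of 1.9e-05 and a q-value of 0.0124 in the B table. For the Y table the authors' deposited table gave a larger log2 fold of 10.58 with a p-value of 0.911. Fold and p-value of the authors' test thus went apart for the same locus, and the reason is not recorded in the tables.

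Among loci with at least 1 RPKM in both libraries of a table, the lowest folds mostly recurred in both tables. MELO3C007091 with MELO3C007092 (scaffold00007, 750646 to 757265) had 2772 and 29.2 RPKM in the B table and 3986 and 38.6 RPKM in the Y table, which is 95.1-fold and 103-fold lower in the second library (log2 -6.57 and -6.69). The authors' deposited q-values for it were 0.146 and 0.593. MELO3C009958 with MELO3C009959 (scaffold00011, 6576788 to 6584529, a shared region) had 464 and 6.36, then 1609 and 8.31 RPKM (log2 -6.19 and -7.60). MELO3C002726 with MELO3C002727 (scaffold00001, 5966975 to 5969816) had 201 and 5.28, then 402 and 3.14 RPKM (log2 -5.25 and -7.00). These 3 loci were abundant in both first libraries and low in both second libraries. MELO3C026889 with MELO3C026890 (scaffold00114, 94348 to 97650) followed with 56.7 and 4.19, then 52.4 and 1.32 RPKM (log2 -3.76 and -5.32). The remaining locus among the 4 lowest folds of the B table, MELO3C022183 with MELO3C022184 (scaffold00051, 2083261 to 2101041, a shared region), did not recur. It had 414 and 7.55 RPKM in the B table, 54.9-fold lower in the second library, and 7.998 and 87.9 RPKM in the Y table, 11.0-fold higher.

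The highest folds, under the same limit of 1 RPKM, recurred for some loci and not for others. MELO3C012553 with MELO3C012554 (scaffold00017, 1510218 to 1516406) had 1.88 and 75.5 RPKM in the B table and 2.36 and 85.5 RPKM in the Y table (log2 5.33 and 5.18). MELO3C004074 with MELO3C004075 (scaffold00003, 3399917 to 3413165) had 29.3 and 569, then 64.7 and 1205 RPKM (log2 4.28 and 4.22). MELO3C012386 with MELO3C012387 (scaffold00016, 4855097 to 4864270) had 0.861 and 102, then 1.83 and 365 RPKM (log2 6.89 and 7.65). In these 3 the second library was 19.4-fold to 119-fold above the first in the B table and 18.6-fold to 200.2-fold above it in the Y table. The 119-fold is that of MELO3C012386, whose first library of the B table was below 1 RPKM. That locus was picked by its fold in the Y table alone. MELO3C009756 with MELO3C009757 (scaffold00011, 4718706 to 4727298) had 1.69 and 38.7, then 1.49 and 12.6 RPKM (log2 4.52 and 3.08).

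A pair of loci was far higher in the second library of 1 table but not of the other. MELO3C005180 with MELO3C005181 (scaffold00005, 1739622 to 1743999) had 1.34 and 234 RPKM in the B table, 175-fold higher in the second library, but 2.15 and 1.18 RPKM in the Y table (log2 -0.86). MELO3C014144 with MELO3C014145 (scaffold00021, 4649361 to 4651242) had 3.85 and 2.18 RPKM in the B table (log2 -0.82), but 10.2 and 2282 RPKM in the Y table, 224-fold higher in the second library. Each of these values comes from a single library, so neither the fold nor the difference between the tables has a replicate.

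**Figure D5:**
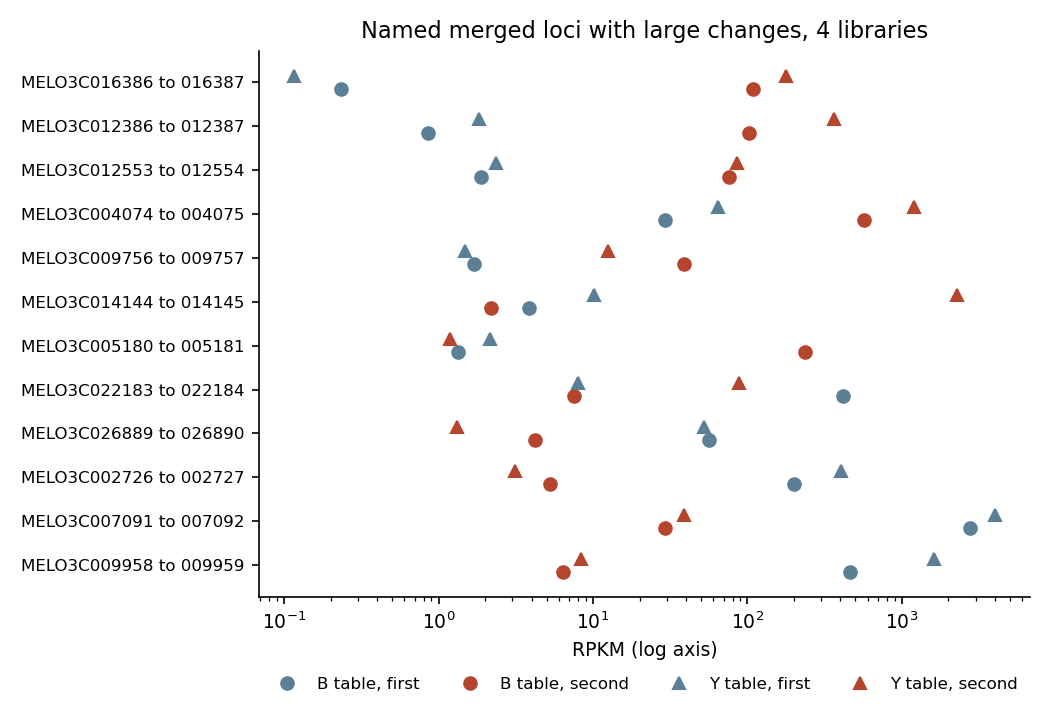
RPKM on a log axis in the first and second libraries of the B and Y tables for the 4 highest and 4 lowest deposited folds per table among merged loci with at least 1 RPKM in both libraries, and for the locus past the q-value limit, each named by its first and last identifier. Most pairs of points move the same way in both tables, whereas MELO3C022183, MELO3C005180 and MELO3C014144 do not.

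The loci chosen for their length or span varied in how much they changed. In the longest region, MELO3C004302 with MELO3C004304 had 13.1 and 6.93, then 9.56 and 4.61 RPKM (log2 -0.91 and -1.05), while MELO3C004288 with MELO3C004291 was listed at 0 in the first library of the B table and had 0.541, 1.86 and 1.26 RPKM in the others. MELO3C021580 with MELO3C021581 had 6.60 and 4.77, then 6.66 and 3.48 RPKM. Among the widest spans, MELO3C020282 to MELO3C020288 had 13.5 and 9.58, then 11.4 and 13.5 RPKM, and MELO3C021845 with MELO3C021851 was lower in the second library of each table, with 95.6 and 25.9, then 97.3 and 17.1 RPKM (log2 -1.88 and -2.51). Of the 3 shortest, MELO3C016386 with MELO3C016387 was the locus with 0.233 and 109, then 0.116 and 179 RPKM. The shortest pair, MELO3C008011 with MELO3C008012, had 88.9 and 217, then 237 and 383 RPKM (log2 1.28 and 0.69). MELO3C023379 with MELO3C023380 had 5.39 and 0.604 RPKM in the B table (log2 -3.16) and 1.16 RPKM in the first library of the Y table, and was listed at 0 in its second.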

How the data were processed

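The submitters' processing notes list CASAVA and TopHat2 with no version, and the sources used here name no tool for quantification. Each of the 2 deposited tables lists the same 32625 loci, with the authors' RPKM in 2 libraries, a log2 fold (second over first, per the file headers) with a placeholder where a library is at 0, and the authors' p-value and q-value. No read counts are given. Among the 1500 lowest single-identifier loci of each table, the commonest ratio of second to first library was 0.74 in the B table (34 loci) and 0.11 in the Y table (19 loci), too scattered to recover whole reads, so the depth is unknown and no counting interval is given.

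The members and comparisons were chosen with earlier results of these data known. Loci were named by a rule: the most identifiers, the highest levels, the largest and smallest folds per table with at least 1 RPKM in both libraries, a q-value under 0.05, the widest spans, and the longest and shortest regions. Other named loci were chosen after their values were seen. Folds were summarised where the authors' test ran and the fold was finite. With 1 library per group no test of salt was made, and a 2-fold limit describes sizes only. Intervals are exact binomial (order-statistic for medians, Clopper-Pearson for shares) at 95%; they cover spread over loci, not plants. Matched differences carry the width of the unbinned interval of the merged loci alone. Those limits are therefore approximate and leave out the spread of single-identifier loci. Calculations used Python 3.11.15 with scipy 1.17.1, pandas 2.3.3, numpy 2.4.6 and, for figures, matplotlib 3.10.9. The matching was tested on simulated data. There the median fold followed the level, but the share changed did not, and neither followed region length. The simulation therefore does not show how well matching works for the share or for bins by region length.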

Additional observations from a re-analysis of the deposited data

Results flagged for a closer look

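At 7 merged loci the deposited folds of the B and Y tables were each at least 2-fold and pointed in opposite directions. The difference between the tables was not tested, since each fold compares 2 single libraries. Values below are RPKM in the first and second library of the B table and then of the Y table, followed by the B minus Y difference of the log2 folds. MELO3C022183 with MELO3C022184 had 414 and 7.55, then 7.998 and 87.9 RPKM, a difference of -9.24. MELO3C013376 with MELO3C013377 had 34.2 and 247, then 383 and 49.3 RPKM, a difference of 5.81. MELO3C003614 with MELO3C003615 had 2.99 and 15.7, then 10.0 and 4.35 RPKM, a difference of 3.60. MELO3C022420 with MELO3C022421 had 482 and 1933, then 1077 and 401 RPKM, a difference of 3.43. In the first of these 4 the second library was the lower in the B table and the higher in the Y table, and in the other 3 the reverse.

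The remaining loci were nearer the 2-fold limit. MELO3C019803 with MELO3C019804 had 22.7 and 48.3, then 79.9 and 30.9 RPKM, a difference of 2.46. MELO3C023052 with MELO3C023055 had 26.8 and 11.9, then 25.03 and 56.4 RPKM, a difference of -2.34. MELO3C004905 with MELO3C004906 had 6.56 and 3.05, then 5.18 and 11.3 RPKM, a difference of -2.23.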

How the results depend on the processing

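Of 106 alternative values for 12 results, 83 stayed within the limits set for the result, 21 moved beyond them and 2 reversed. A part of the loci or a stricter limit can only lower a count, so such moves in a count were fixed in advance. For merged loci at least 2-fold higher and lower in the B table (119 and 247, 13.0% and 27.0%), loci with at least 3 identifiers alone gave 17 and 31 (14.3% and 26.1%). A 4-fold limit gave 44 and 85, and loci with a region of their own gave 159 lower (28.3%). The B shares of these parts thus stayed near those of all merged loci. In the Y table (126 and 285) at least 3 identifiers gave 22 and 25, and a 4-fold limit gave 51 and 104. Regions of their own gave 73 higher (12.6%), and centring on single-identifier loci gave 193 higher (20.5%). The 119 loci with at least 3 identifiers that had a fold in the Y table were higher in 18.5% and lower in 21.0%, against 13.4% and 30.3% of all merged loci, so their share moved too, and the cause was not tested. The median log2 fold was -0.23 (B) and -0.058 (Y) when centred, and -0.24 and -0.14 with at least 3 identifiers. The level-matched difference in medians was -0.11 in the B table with bins by the second library and -0.34 in the Y table with bins by level and region length. The level-matched difference in the percent changed at least 2-fold was -1.79 in the B table with bins by level and region length, and it reversed to 4.49 (B) and 2.31 (Y) among loci with a region of their own in such bins; the cause was not tested. This result and its alternatives were added after the data were seen. The median length was 7240.5 bp for regions of their own and 8953 bp with exactly 2 identifiers. With steps of at most 2 allowed, 97.8% of loci counted as consecutive. No paired analysis was possible because each group has 1 library and the columns are not tied to a treatment; for the same reason no library could be left out. The depth is unknown, so low values have no error.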
